A study of Mus musculus with 4 samples.

Results

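The 9 genes described here make, carry, sense and clear retinoic acid, and they were taken by symbol from the count tables of sorted kidney cells with and without *Eya1*. They are the retinal dehydrogenases *Aldh1a1*, *Aldh1a2* and *Aldh1a3*, the retinoic acid receptors *Rara*, *Rarb* and *Rarg*, the cellular binding proteins *Crabp1* and *Crabp2*, and the hydroxylase *Cyp26b1*. All 9 were found among 52636 gene identifiers, and all 9 had enough reads to be among the 19041 genes tested.

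Retinoic acid is a diffusible derivative of vitamin A. Retinol is oxidised to retinal, chiefly by *Rdh10* in the embryo, and the Aldh1a enzymes oxidise retinal to retinoic acid, which then enters the nucleus and binds receptors of the RAR family. RARs pair with RXRs on direct repeats of a short half-site in DNA, and the Cyp26 enzymes remove the ligand by hydroxylation. In the embryonic kidney *Aldh1a2* is a main source of retinoic acid, and signalling through *Rara* and *Rarb* is known to sustain *Ret*, the GDNF receptor of the ureteric bud.

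RNA-seq was carried out on tdTomato+ cells that had been sorted by FACS from kidneys at E12.5–E12.75, 48 h after tamoxifen was first given, with 5000 cells in each of 2 Control and 2 *Eya1*cKO libraries. Control embryos carried *Eya1*CreER and the *R26-tdTomato* reporter, and *Eya1*cKO embryos carried *Eya1*CreER, *Eya1* fl/fl and the reporter. Both groups thus carried the CreER allele and the reporter and both received tamoxifen, on a mixed C57BL/6J and 129/Sv background. Recombination depended on CreER expressed from *Eya1*, so the sort collected the tamoxifen-labelled *Eya1* lineage and not the whole kidney. Suspensions of several embryos were combined before sorting, and each library was a different portion of a genotype's cells from 1 sort. The p-values therefore measure the spread between such portions, which may be technical.

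*Eya1*, the targeted gene, was read 6612 and 6420 times in the Control libraries and 377 and 219 times in *Eya1*cKO (log2 fold change -3.60, SE 0.18, adjusted p = 0.00019, edgeR quasi-likelihood test). Gene counts per library summed to 17457452 at the least and 37999342 at the most, and both *Eya1*cKO libraries were shallower than both Controls. Reads on no annotated gene made up 12.9% to 13.9% of the recorded reads in Control and 20.9% to 22.7% in *Eya1*cKO. Reads that did not align made up 6.3% and 6.7% in Control and 12.9% and 12.7% in *Eya1*cKO. Genes with a count numbered 26486 and 27091 in Control and 21455 and 20538 in *Eya1*cKO. The *Eya1*cKO libraries also differed more from each other, with a median absolute gap of 0.437 on the log2(CPM + 1) scale against 0.15 between the Controls. The sorted cells carried nephron progenitor markers, and all 10 of these were called lower in *Eya1*cKO. Their sum fell from 2080 and 2090 CPM (counts per 1000000 reads, scaled by TMM) to 430 and 389 CPM. The 10 include the deleted *Eya1* itself, whose fall was set by the design. Others of them are listed by the paper among genes bound by Eya1. Markers of other cells moved as well. All 8 adrenal cortex markers were called higher (summed level 12.7 to 19.7 CPM in Control, 703 to 739 CPM in *Eya1*cKO), as were all 8 sympathoadrenal markers (6.52 to 10.3 CPM against 545 to 580 CPM) and all 8 endothelial markers (659 to 675 CPM against 1180 to 1230 CPM). Of 10 renal stroma markers 8 were higher (2900 CPM in both Controls, 6150 to 6370 CPM in *Eya1*cKO), as were 6 of 7 podocyte markers (877 to 898 CPM against 2770 to 2820 CPM). Ureteric epithelium markers summed to 198 to 201 CPM and to 99.1 to 112 CPM, with *Ret* and *Calb1* called lower among the 7 tested. *Upk3a* and *Krt5*, which mark later urothelium, were at 0 in all libraries. None of 4 tested mesothelium markers was called (8.03 to 9.2 CPM against 10.8 to 17.7 CPM), nor any of 3 tested erythroid and leukocyte markers (60.3 to 62.2 CPM against 57.4 to 70.2 CPM, *Hba-a1* at 0). *Xist*, an RNA of female cells, was read 8723 and 8350 times in Control and 703 and 631 times in *Eya1*cKO. Its log2 fold change was -2.83 (adjusted p = 0.00019, edgeR). The sex of the pooled embryos is not given in the sources used here. A difference in sex between the pools cannot be told apart from genotype. The part of these shifts in the results below was not tested. In bulk RNA, fewer cells of a type and less RNA per cell cannot be told apart.

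The DNA element through which RARs act is shown first, because it marks which of these genes carry it near their start. Promoter windows of 300 bases (250 before and 50 after the start site) from RefSeq on GRCm38.p6 were matched for 7 of the 9 genes, 12 windows in all; none was matched for *Aldh1a3* and *Crabp2*. They were searched on both strands for the half-site AGGTCA, its variant AGTTCA, the variant GGGTCA and lastly the variant GGTTCA, in direct repeats spaced by 1 (DR1), 2 (DR2) or 5 bases (DR5). Of the 12 windows, 1 held such a repeat, a DR5 in a window of *Rarb* on chromosome 14 (chr14:16575427-16575726, minus strand). The repeat lay at chr14:16575513-16575529, 53 to 37 bases before the start site, and is in capitals in the sequence below. Among the other genes of the pathway a DR5 was found in the window of *Cyp26a1* (chr19:37697558-37697857, plus strand), 32 to 16 bases before its start and on the opposite strand, and a DR1 in that of *Bco1*. The *Cyp26a1* window is printed for comparison, again 5′ to 3′ along the gene and with the repeat in capitals.
Rarb: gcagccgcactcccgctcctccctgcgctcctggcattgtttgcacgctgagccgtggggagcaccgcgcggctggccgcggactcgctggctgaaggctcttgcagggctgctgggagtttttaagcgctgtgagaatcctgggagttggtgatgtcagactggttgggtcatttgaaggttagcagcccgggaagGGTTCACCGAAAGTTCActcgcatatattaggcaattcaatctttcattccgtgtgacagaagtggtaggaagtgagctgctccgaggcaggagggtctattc
Cyp26a1: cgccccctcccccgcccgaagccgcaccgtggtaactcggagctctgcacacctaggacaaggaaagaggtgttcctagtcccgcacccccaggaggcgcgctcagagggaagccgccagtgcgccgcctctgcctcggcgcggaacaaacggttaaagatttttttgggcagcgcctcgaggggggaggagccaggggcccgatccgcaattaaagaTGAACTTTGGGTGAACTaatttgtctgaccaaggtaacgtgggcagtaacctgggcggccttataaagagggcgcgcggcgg
A DR5 of these letters was present in 0.0975% of all 32817 promoter windows of the same length, a DR1 in 0.222%, a DR2 in 0.268% and any of the repeats in 0.588%. A single half-site was present in 43.7% and therefore separates few genes. A match is a description of the sequence and not a measured binding site.

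Of the 9 genes, *Aldh1a2* fell and *Crabp1* rose in *Eya1*cKO, and the other 7 did not pass an adjusted p of 0.05. The 2 calls are 22.2% of the genes, where 9.56% of all genes tested were called, 4.41% lower and 5.15% higher. The libraries of the groups did not overlap for 7 of the 9, which is 77.8% against a background of 55.3%. The median log2 fold change over the 9 was 0.38, beside 0.02 over all genes tested, with 7 values above 0 and 2 below. At an unadjusted p under 0.05 were 5 of the 9 and 5479 of all 19041 genes.

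**Figure D1:**
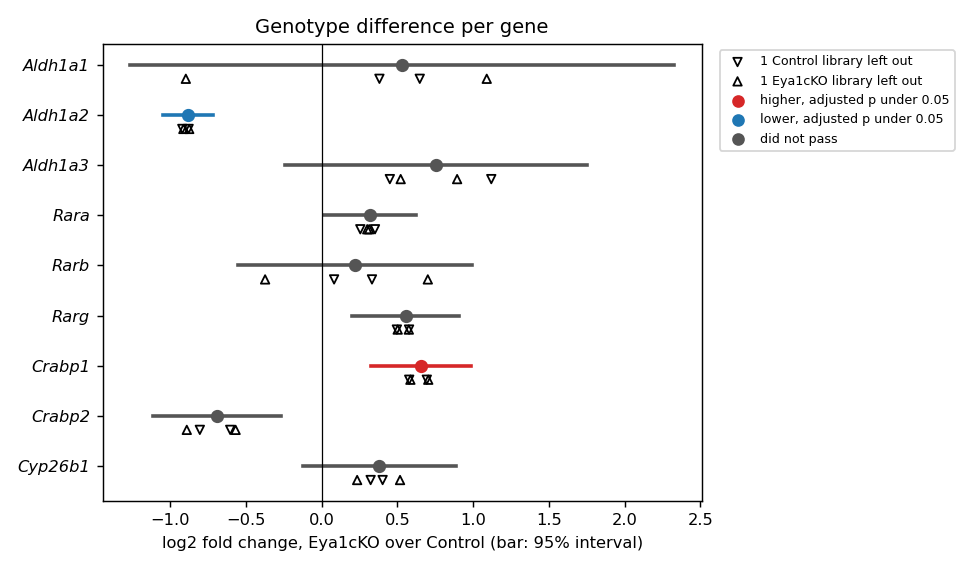
Log2 fold change of each gene, *Eya1*cKO over Control, with its 95% interval (dots and bars), and the value with 1 library left out (open triangles, pointing down for a Control and up for an *Eya1*cKO library). *Aldh1a2* (-0.88) and *Crabp1* (0.65) passed the test, and the triangles of *Aldh1a1* and *Rarb* lie on both sides of 0.

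*Aldh1a2* was the most abundant of the 9 and had the clearest difference. Its locus (ENSMUSG00000013584) lies at chr9:71215789-71296243 on the plus strand of GRCm38. It was read 17733 and 19495 times in the Control libraries and 6237 and 4957 times in *Eya1*cKO, or 506.8 and 519.6 CPM against 275.5 and 282.0 CPM. Each pair was tight, and the groups lay far apart. The mean fell from 513.2 ± 9.1 to 278.7 ± 4.6 CPM (SD, n = 2), a 1.84-fold decrease with a log2 fold change of -0.88 (SE 0.07, 95% interval -1.05 to -0.72, adjusted p = 0.0012, edgeR). Over all the alternative settings the estimate stayed between -0.92 and -0.85. Leaving out Control 1 or Control 2 ended the call (adjusted p = 0.10 and 0.12, edgeR), a setting in which only 23 of all genes were called. In Control the level of *Aldh1a2* exceeded that of 98.9% of the genes tested.

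The other dehydrogenases were scarce. *Aldh1a3* (ENSMUSG00000015134, chr7:66390890-66427517, minus strand), which acts in the embryonic eye and nose, was read 207 and 352 times in Control and 328 and 196 times in *Eya1*cKO. Scaled to depth these were 5.92 and 9.38 CPM in Control and 14.5 and 11.2 CPM in *Eya1*cKO. Both *Eya1*cKO values lay above both Controls, but the gaps within the groups were wide and the log2 fold change of 0.76 did not pass (SE 0.42, 95% interval -0.24 to 1.76, adjusted p = 0.29, edgeR). Without *Eya1*cKO 2 it was 0.89 and passed (adjusted p = 0.035, edgeR). Passing there says little, since 7925 of 22440 genes were called without *Eya1*cKO 2 and 7414 of 22134 without *Eya1*cKO 1, which holds for every such value below.

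*Aldh1a1* (ENSMUSG00000053279, chr19:20492715-20643465, plus strand), an enzyme abundant in adult tissues, was read 89 and 79 times in Control and 113 and 22 times in *Eya1*cKO. At 2.54, 2.11, 4.99 and 1.25 CPM the *Eya1*cKO libraries stood on both sides of the Controls. The log2 fold change was 0.53 with an interval of -1.27 to 2.33 (adjusted p = 0.69, edgeR), and its sign turned when *Eya1*cKO 1 was left out (-0.90). Of its 75-base windows, 1.01% were shared with its neighbour *Aldh1a7*, and a read lying wholly in such a window cannot be assigned to 1 of these genes.

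Levels of different genes were compared per length as RPKM (CPM divided by the kilobases of exon). *Aldh1a2* made up 99.2% and 98.9% of the summed Aldh1a RPKM in Control and 96.7% and 97.9% in *Eya1*cKO. The share of *Aldh1a3* was 0.568% and 0.876% in Control and 2.49% and 1.9% in *Eya1*cKO. The family sum followed *Aldh1a2*, from 226 and 232 RPKM in Control to 126 and 127 RPKM in *Eya1*cKO, or 55.3% of the Control mean. The means of *Aldh1a3*, 1.66 and 2.78 RPKM, differed by little beside the drop of *Aldh1a2* from 227 to 123 RPKM.

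**Figure D2:**
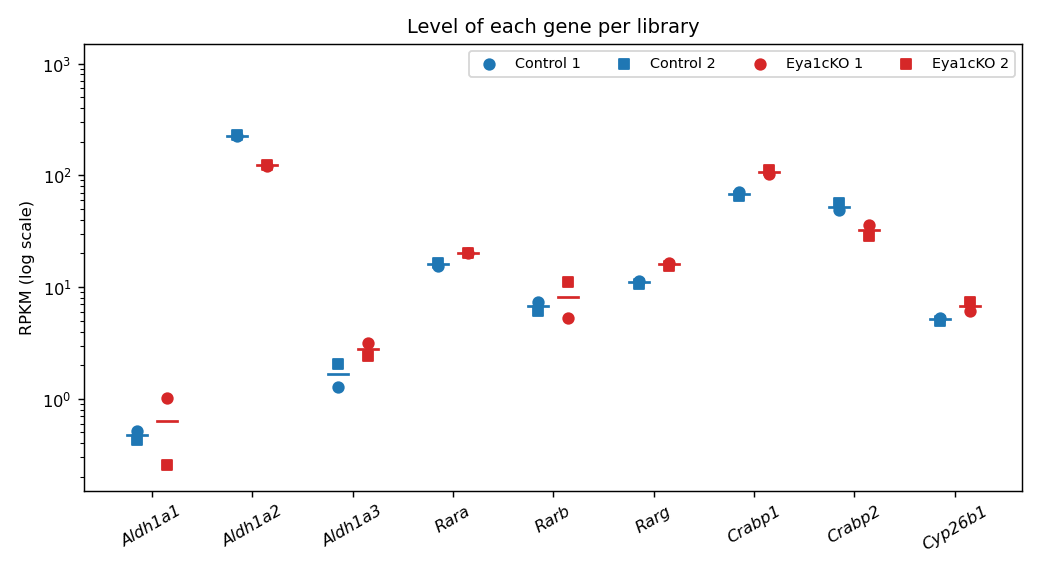
RPKM of each gene on a log scale in the 4 libraries, with the group means as horizontal lines. *Aldh1a2* stands highest in Control, where its mean was 227 RPKM, and *Aldh1a1* lowest with 0.471 RPKM.

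None of the 3 receptors passed the test. *Rarg* (ENSMUSG00000001288, chr15:102234938-102257517, minus strand) had 1682 and 1699 reads in Control and 1591 and 1170 in *Eya1*cKO. After scaling, its 48.1 and 45.3 CPM in Control stood below the 70.3 and 66.6 CPM in *Eya1*cKO, with no overlap. On the log2 scale the difference was 0.56 (SE 0.15, 95% interval 0.20 to 0.91, adjusted p = 0.064, edgeR). It did pass with DESeq2's Wald test (adjusted p = 0.026) and without *Eya1*cKO 1 or *Eya1*cKO 2 (0.0092 and 0.0023, edgeR), settings in which 7414 and 7925 of all genes were called.

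*Rara* (ENSMUSG00000037992, chr11:98927818-98974942, plus strand), the most widely expressed RAR, had 2381, 2720, 1983 and 1548 reads (Controls first). Its 68.1 and 72.5 CPM in Control lay below the 87.6 and 88.1 CPM in *Eya1*cKO, so the groups were apart by a small margin. The fitted difference was 0.32 on the log2 scale (SE 0.13, 95% interval 0.02 to 0.62, adjusted p = 0.15, edgeR), and it passed without *Eya1*cKO 2 (0.047).

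*Rarb* (ENSMUSG00000017491, chr14:16430839-16819156, minus strand) is itself a known retinoic acid target through the DR5 printed above. Reads numbered 1355 and 1217 in Control and 627 and 1022 in *Eya1*cKO, or 38.7, 32.4, 27.7 and 58.1 CPM. The *Eya1*cKO libraries held both the lowest and the highest value, and the log2 fold change of 0.22 had an interval of -0.55 to 0.99 (adjusted p = 0.70, edgeR). Without *Eya1*cKO 2 it was -0.37, and without *Eya1*cKO 1 it was 0.70 and passed (adjusted p = 0.0022, edgeR). Its count is also uncertain for another reason. Over 34.1% of its exon length (1793 bp) *Rarb* overlaps *Top2b*, a DNA topoisomerase gene on the opposite strand, and over 4.31% the antisense gene *Gm48162*, and the strand setting of the counting is not stated in the sources used here. *Top2b* was read 17969, 18266, 8956 and 6709 times, far more often than *Rarb*, and fell by 0.36 on the log2 scale (adjusted p = 0.024, edgeR).

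By RPKM the order in Control was *Rara* (16.1 ± 0.7), *Rarg* (11 ± 0.5) and *Rarb* (6.76 ± 0.85, SD, n = 2), with no overlap between neighbours. In *Eya1*cKO it was *Rara* (20.1 ± 0.1), *Rarg* (16.1 ± 0.6) and *Rarb* (8.15 ± 4.09), again without overlap although *Rarb* spanned 5.26 to 11 RPKM. These values divide by the full exon length of *Rarb*, of which 34.1% overlaps *Top2b* and 4.31% *Gm48162*. Whether reads there were counted for *Rarb* depends on the strand setting, which is not stated. The order in both groups, and the sums and shares below, may differ over the unshared length, which was not tested. The summed receptor level was 34.2 and 33.4 RPKM in Control and 41.8 and 46.8 RPKM in *Eya1*cKO. Within that sum *Rara* held 45.5% and 49.7% in Control and 48% and 43.1% in *Eya1*cKO, and *Rarg* held 33% and 31.8% against 39.4% and 33.4%. The share of *Rarb* was 21.5% and 18.4% in Control and 12.6% and 23.6% in *Eya1*cKO. The shares of *Rara* and *Rarb* thus overlapped between the groups, while those of *Rarg* were higher in *Eya1*cKO by a margin smaller than the gap between the *Eya1*cKO libraries.

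Of the binding proteins *Crabp1* rose, and *Crabp2* had a fold change below 0 that did not pass. *Crabp1* (ENSMUSG00000032291, chr9:54764748-54773110, plus strand) encodes a cytoplasmic protein that sequesters retinoic acid and has been tied to its breakdown. Its reads numbered 1989 and 1960 in Control and 1872 and 1572 in *Eya1*cKO, which at their depths is 56.9 and 52.2 CPM against 82.7 and 89.4 CPM. The groups did not overlap, and the mean rose 1.57-fold from 54.5 ± 3.3 to 86.1 ± 4.8 CPM (SD, n = 2; log2 fold change 0.65, SE 0.14, 95% interval 0.32 to 0.99, adjusted p = 0.033, edgeR). The call was lost without the low-count filter (adjusted p = 0.072), with the legacy edgeR method (0.057) and without Control 1 or Control 2 (0.56 and 0.66), whereas the direction was kept throughout.

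*Crabp2* (ENSMUSG00000004885, chr3:87948666-87953376, plus strand) encodes the protein that passes retinoic acid to nuclear RARs. Counted reads were 2265 and 2780 in Control and 1073 and 664 in *Eya1*cKO, or 64.7 and 74.1 CPM against 47.4 and 37.8 CPM. Both *Eya1*cKO values were lower than both Controls, by a 1.61-fold difference in fitted means. The log2 fold change of -0.69 (SE 0.18, 95% interval -1.12 to -0.27) narrowly missed the threshold (adjusted p = 0.059, edgeR). It passed with DESeq2 (adjusted p = 0.019), with at least 10 counts required in every library (0.041, edgeR) and when either *Eya1*cKO library was left out, where 7414 and 7925 of all genes were called, the range over all alternatives being 0.00022 to 0.70.

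The share of *Crabp1* in the summed Crabp RPKM was 59.1% and 53.8% in Control and 74.2% and 79.6% in *Eya1*cKO. The ratio of *Crabp1* to *Crabp2* was 1.45 and 1.16 in Control and 2.88 and 3.9 in *Eya1*cKO, a difference of 1.37 between mean log2 ratios. Which of them was higher in Control depended on the gene length used, since with the longest transcript in place of all exons *Crabp2* had 74.6 and *Crabp1* 68.0 RPKM. The difference in log2 ratio between the groups does not depend on length, whereas the shares and the sum do. With the longest transcript the mean share of *Crabp1* was 47.7% in Control and 70.1% in *Eya1*cKO. By the length of all exons, the summed level of both was 120 and 121 RPKM in Control and 139 and 140 RPKM in *Eya1*cKO.

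**Figure D3:**
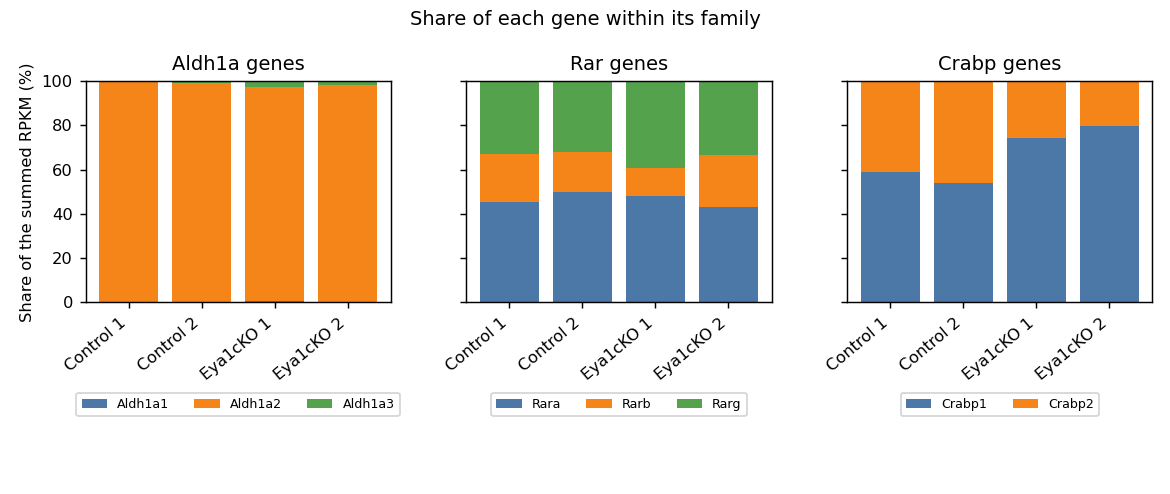
Share of each gene in the summed RPKM of its family, in percent, as 1 stacked bar per library. *Aldh1a2* fills at least 96.7% of every Aldh1a bar, *Rara* holds 43.1% to 49.7% of the Rar bars, and *Crabp1* takes 53.8% to 59.1% of the Control and 74.2% to 79.6% of the *Eya1*cKO bars.

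*Cyp26b1* (ENSMUSG00000063415, chr6:84571414-84593908, minus strand), the hydroxylase that clears retinoic acid, had 988 and 999 reads in Control and 738 and 695 in *Eya1*cKO. Its 28.2 and 26.6 CPM in Control lay below the 32.6 and 39.5 CPM in *Eya1*cKO. This difference of 0.38 on the log2 scale did not pass (SE 0.21, 95% interval -0.12 to 0.89, adjusted p = 0.29, edgeR), though it did without *Eya1*cKO 1 (0.035). Set against the main synthesis enzyme, the ratio of *Aldh1a2* to *Cyp26b1* in RPKM was 42.4 and 46.1 in Control and 20 and 16.9 in *Eya1*cKO, a difference of -1.27 between mean log2 ratios. The change of *Aldh1a2* (-0.88) was the larger part of it, since *Cyp26b1* differed by 0.38. The related *Cyp26a1*, whose promoter is printed above, was read 65 and 101 times in Control and 0 and 19 times in *Eya1*cKO, and was not called (adjusted p = 0.25, edgeR). *Cyp26c1* had 5, 8, 0 and 0 reads and was too low to test.

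Besides the 9 genes, a list of 47 other genes of the pathway was examined, of which 40 were tested. Of these, 9 were called (22.5%, beside 9.56% of all genes tested), 6 lower and 3 higher (4.41% and 5.15% of all genes). The median log2 fold change of the 40 was -0.04. The libraries of the groups were apart for 22 of the 40 (55%), close to the background of 55.3%. Genes of retinol uptake and conversion to retinal had 4 calls among 14 tested (28.6%), with a median of 0.13.

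Upstream of the Aldh1a enzymes, *Rdh10*, the retinol dehydrogenase that supplies them with retinal, was read 3429 and 3501 times in Control and 419 and 742 times in *Eya1*cKO. These are 98.0 and 93.3 CPM against 18.5 and 42.2 CPM, so that both *Eya1*cKO libraries were low although they differed from each other. The log2 fold change was -1.72 (SE 0.28, adjusted p = 0.014, edgeR), and it was -2.39 without *Eya1*cKO 2 and -1.19 without *Eya1*cKO 1. The call was lost without Control 1 or Control 2 (adjusted p = 0.31 and 0.30) and with the legacy method (0.07).

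*Stra6*, the cell surface receptor that takes up retinol, fell from 53.8 and 65.1 CPM in Control to 32.2 and 22.6 CPM in *Eya1*cKO (log2 fold change -1.10, SE 0.23, adjusted p = 0.030, edgeR). It was not called without the low-count filter (adjusted p = 0.062), with the legacy method (0.061) or without either Control. *Adh1*, an alcohol dehydrogenase that can oxidise retinol, went the other way, from 169 and 118 to 2736 and 2239 reads (log2 fold change 4.97, SE 0.22, adjusted p = 0.00012, edgeR), and was called in all 12 alternatives. *Bco1*, which cleaves beta-carotene to retinal, rose from 12 and 2 to 86 and 57 reads (adjusted p = 0.034, edgeR), and 5 of the 11 alternatives that tested it did not call it. *Rdh10* and *Stra6* thus fell as *Aldh1a2* did, and *Adh1* and *Bco1* rose.

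Among the RXR partners of the receptors, 1 of 3 was called (33.3%, beside 9.56% of all genes tested and 4.41% called lower). With 3 genes this share says little about the group. *Rxrb* fell from 73.5 and 75 CPM to 48.7 and 49.8 CPM (log2 fold change -0.59, SE 0.14, adjusted p = 0.049, edgeR), a value at the threshold that 8 of the 12 alternatives did not call. *Rxra* was read 2661, 2651, 1627 and 2006 times and *Rxrg* 77, 92, 0 and 42 times, and neither was called (adjusted p = 0.37 and 0.53, edgeR).

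Of 10 cofactors and carriers, *Ncoa1*, a coactivator of nuclear receptors, was the 1 called, with 44.5 and 48.3 CPM in Control and 82.8 and 79.7 CPM in *Eya1*cKO (log2 fold change 0.81, adjusted p = 0.018, edgeR). The call was lost without Control 1 or Control 2. *Fabp5*, a carrier that also binds retinoic acid, had 80.1, 83.1, 70.1 and 43.6 CPM and was not called (adjusted p = 0.17, edgeR). The median of the 10 was -0.04, and 1 call in 10 is near the background of 9.56%.

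Of 17 genes known to respond to retinoic acid in other settings, 16 were tested and 4 were called (25%), all 4 lower, beside 4.41% of all genes called lower, with a median of -0.08. Besides *Stra6* they were *Ret*, *Meis2* and *Nr2f2*. *Ret*, also a ureteric epithelium marker, was read 750 and 856 times in Control and 145 and 95 times in *Eya1*cKO (log2 fold change -1.89, SE 0.36, adjusted p = 0.023, edgeR). The homeobox gene *Meis2* fell by 0.55 on the log2 scale, from 432 and 416 CPM to 313 and 262 CPM (adjusted p = 0.017, edgeR), and the nuclear receptor gene *Nr2f2* by 0.36, from 834 and 843 CPM to 656 and 654 CPM (adjusted p = 0.013, edgeR). None of these 3 was called when either Control library was left out. Not called but higher in both *Eya1*cKO libraries were *Tgm2*, with 24.1 and 23.5 CPM in Control and 55.6 and 35.4 CPM in *Eya1*cKO (log2 fold change 0.97, adjusted p = 0.062, edgeR), and *Rarres1*, with 1.97 and 1.44 CPM against 5.21 and 5.80 CPM (1.69, adjusted p = 0.14). These 2 genes were named after their values were seen. *Rarb*, a target of the same kind, overlapped between the groups, as described above.

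**Figure D4:**
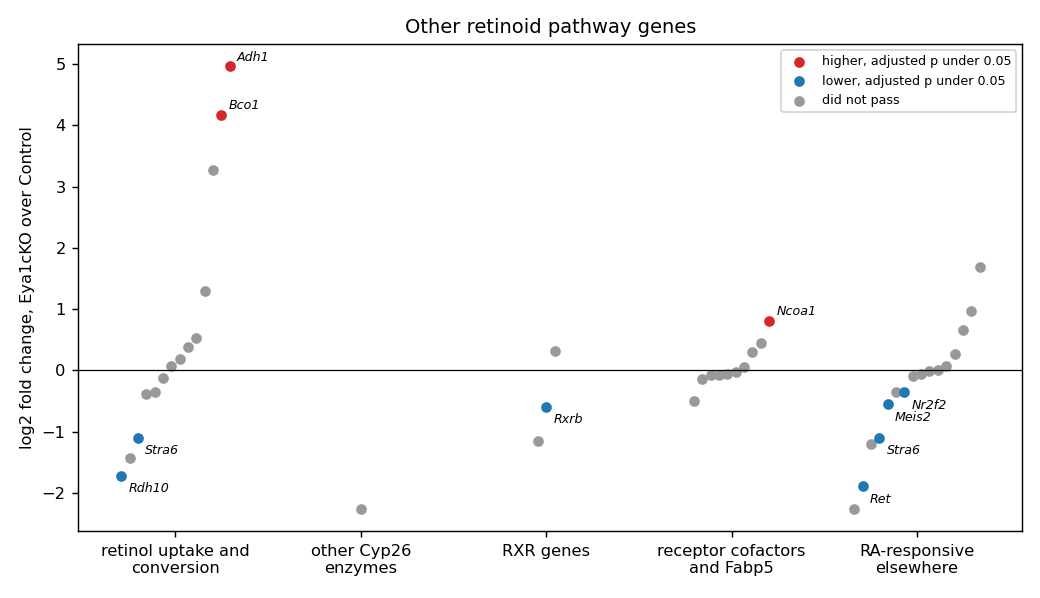
Log2 fold change, *Eya1*cKO over Control, of each tested gene of the pathway besides the 9, in 5 groups of function, with *Cyp26a1*, *Stra6* and others that belong to more than 1 group drawn in each. *Rdh10* (-1.72) and *Adh1* (4.97) are the lowest and highest called genes of retinol conversion, and all 4 called responsive genes lie below 0.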

How the data were processed

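The authors mapped single-end reads of 75 bases from strand-specific libraries to mm10 with HISAT2, counted them on Ensembl v90 genes with HTSeq-count and tested them with DESeq2. Tool versions and the strand setting are not given in the sources used here. The deposited values are raw counts per gene and library. Rows that name no gene (31.8% to 46.1% of recorded reads) were left out of library sizes.

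Tests were run with edgeR 4.0.16 under R 4.3.3: filterByExpr with a minimum count of 10, TMM factors, and glmQLFit and glmQLFTest with Benjamini-Hochberg adjustment over 19041 genes at 0.05. The design was genotype alone. CPM and RPKM used TMM-scaled library totals, and RPKM the union of exons in GENCODE M21 on GRCm38, a later annotation than the authors'. Of 52636 identifiers 52403 had a symbol. At this depth 3 counts equal 0.080 to 0.171 CPM, which covers counting error only. The fit was also run on simulated counts that had the same spread in both groups. The spread of these data was unequal, so that run does not show how the fit behaves here.

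The 9 genes and all lists were chosen with earlier results of these data known. Named were the 9, every other pathway gene called, the 2 of largest change tested in each list, all RXR and Cyp26 genes, and the genes sharing exons with the 9. *Aldh1a7*, *Xist* and the markers at 0 were named after their values were seen. Alternatives were no low-count filter, DESeq2's size factors, library totals, a minimum of 10 counts in each library, DESeq2 1.42.0, legacy and robust quasi-likelihood, a replicate block, each library left out, and longest-transcript lengths. Protein sequences were not used here. The labels give 6 kidneys per genotype from 4 females, whereas the methods count them differently.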

Additional observations from a re-analysis of the deposited data

How the results depend on the processing

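Of 108 alternative values over the 9 genes, 106 kept the direction of the fold change and 88 also their side of the threshold. Of all genes 1820 were called, against 1055 without the low-count filter, 1096 with legacy quasi-likelihood and 3113 with DESeq2, whose own filtering started from 31192 genes, so that test and filter changed together, and 23 to 7925 when 1 library was left out (23 without either Control, 7414 and 7925 without *Eya1*cKO 1 and 2). Leaving out a library leaves 1 arm with a lone sample that is assumed to vary like the other arm, and the *Eya1*cKO libraries differed more from each other than the Controls did. Among the 9 genes, 2 were called, against 1 without the filter, 1 with the legacy method, 4 with DESeq2 and 0 to 6 with 1 library left out. The count was 0 in edgeR without either Control, where 3 and 1 of the genes had an unadjusted p under 0.05. Among the other pathway genes 9 were called, 5 with the legacy method and 1 to 22 with 1 library left out. The log2 fold change turned sign when 1 library was left out for *Aldh1a1* (-0.90 to 1.09), *Rarb* (-0.37 to 0.70), *Rxra* (-0.044 to 0.63) and *Rxrg* (-9.21 to 0.025, the lower value with 0 reads in the remaining *Eya1*cKO library). With the longest transcript as length, the mean share of *Aldh1a2* was 98.6% in Control and 96.1% in *Eya1*cKO, and that of *Rarb* in Control 23.8%. With the replicate number as a block (replicate block), 621 of all genes, 1 of the 9 and 3 of the other pathway genes were called, and the calls of *Crabp1* (adjusted p = 0.12), *Rdh10* (0.056), *Stra6* (0.10), *Bco1* (0.076), *Rxrb* (0.15), *Ncoa1* (0.085) and *Ret* (0.081, edgeR) were lost; the libraries share only a number, since deviations of same-numbered libraries had a correlation of 0.00905 across genes. The cause of these changes was not tested. Low counts limit *Aldh1a1*, with 22 reads in *Eya1*cKO 2, and among the other genes *Cyp26a1*, *Rxrg* and *Bco1*.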
